A study of Mus musculus with 6 samples.

Results

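Of 9 complement genes of mouse inguinal white adipose tissue (iWAT), the fat pad under the skin of the groin, 1 fell in mice whose adipocytes lacked *Cebpa*: *C3*, the central component of the cascade, was at 45.6% of its control level. The same call was made for 3.84% of all genes tested, and that of *C3* held in 6 of 16 alternative fits. *C2* and *Cfb*, the protease subunits of the enzymes that cut C3, stood at 47.0% and 43.5% of control and had all knockout libraries below all controls, as did 13.2% of all genes tested, but did not pass the test. *C1ra*, *C1s1*, *Serping1*, *C4b*, *Cfp* and *Cd59a* had overlapping groups. The 9 genes (*C3*, *C4b*, *C2*, *Cfb*, *Cfp*, *Cd59a*, *C1ra*, *C1s1* and *Serping1*) were chosen by symbol as complement components and regulators other than *Cfd*, out of 36144 gene symbols, and all 9 passed the filter on low counts.

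Bulk RNA-seq was made from whole iWAT of 10-week-old, randomly fed female mice on a C57BL6/J background, with both inguinal depots of a mouse combined and the lymph nodes taken out. The control group, Cebpa_fl/fl, carried floxed *Cebpa* alleles and no AdipoQ-Cre (3 mice), and the knockout group, Cebpa_ASKO, carried the same floxed alleles and the AdipoQ-Cre transgene (3 mice). The *Adipoq* promoter drives Cre late in adipocyte differentiation and in brown as well as white fat, and the other cell types of the tissue are not its target. Each mouse gave 1 library of 33141769 to 49477671 estimated counts, and every p below measures the spread between 3 mice and 3 mice, or 2 where a library was left out.

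Complement is a set of plasma and membrane proteins, mostly proteases and their substrates, that act in sequence to coat particles, attract leukocytes and perforate membranes. In the classical pathway C1q binds its target and activates the proteases C1r and C1s, which cut C4 and C2 to form a C3-cutting enzyme. In the alternative pathway factor D cuts factor B on deposited C3, and properdin stabilizes the resulting enzyme. The liver makes most of the circulating components, and adipose tissue is a well-known source of factor D, also called adipsin, and of C3. C/EBPα, the product of *Cebpa*, is a transcription factor of adipocytes and hepatocytes.

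The targeted gene was checked first. *Cebpa* was at 448, 465 and 498 CPM (a gene's estimated counts per 1000000 of the library's scaled total) in the Cebpa_fl/fl libraries and at 37.7, 45.8 and 37.2 CPM in the Cebpa_ASKO libraries. That is 8.55% of control, a log2 fold change of -3.55 (edgeR quasi-likelihood test, Benjamini-Hochberg adjusted p = 0.000163). Because the tissue was sequenced whole, fewer cells of a type and less RNA per cell cannot be told apart in any value given here. Of 10 adipocyte markers, 5 fell and none was at 0. Their summed level was 17430 to 20270 CPM in Cebpa_fl/fl and 7139 to 9550 CPM in Cebpa_ASKO. Of 10 skeletal muscle markers 9 rose, with sums of 624 to 818 CPM against 2020 to 5661 CPM. With edgeR 3.84% of all genes tested fell and 1.39% rose. DESeq2, another test on counts, called 8 of the adipocyte markers lower and 10 muscle markers higher. It called 6.7% of all genes lower and 3.98% higher. The part of either shift in the results below was not tested.

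Levels were compared between genes in TPM (transcripts per 1000000, that is, counts divided by transcript length and scaled to the same total in each library). In Cebpa_fl/fl *C3* was the highest of the 9 at 648 ± 132 TPM (SD, n = 3), above the next gene, *Serping1* at 293 ± 168 TPM, with no overlap. *C4b* (227 ± 122 TPM), *C1s1* (181 ± 71.2 TPM), *Cfb* (136 ± 45.5 TPM), *Cfp* (116 ± 75.8 TPM) and *C1ra* (94.0 ± 42.6 TPM) followed, and each of these overlapped the gene before it in the order. *Cd59a* (62.5 ± 5.08 TPM) lay below *C1ra* without overlap, and *C2* was lowest at 54.7 ± 20.5 TPM, overlapping *Cd59a*. In Cebpa_ASKO *Serping1* stood first at 332 ± 60.7 TPM and *C3* second at 300 ± 84.5 TPM. The ranges of those 2 genes overlapped, although *Serping1* was above *C3* in 3 of 3 Cebpa_ASKO libraries and below it in every Cebpa_fl/fl library. *C1s1* (199 ± 19.4 TPM) and *C4b* (195 ± 70.5 TPM) came next, then *Cfp* (105 ± 36.5 TPM) and *C1ra* (99.98 ± 14.0 TPM). *Cd59a* (64.3 ± 14.1 TPM) overlapped *Cfb* (63.2 ± 32.3 TPM), which had stood above *Cfp* in the controls, and *C2* was again the lowest at 29.3 ± 7.88 TPM, below *Cfb* without overlap.

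**Figure D1:**
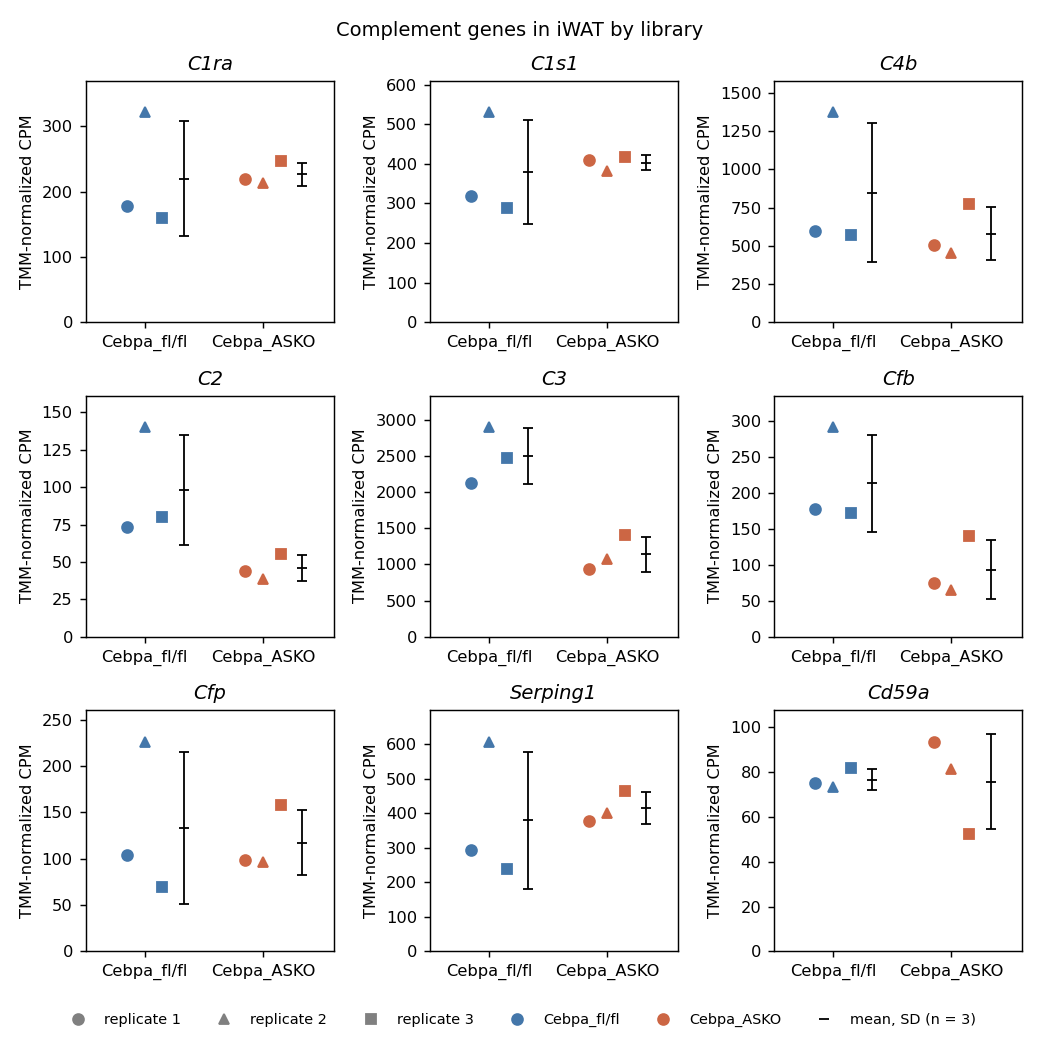
Level of each of the 9 genes in CPM (vertical axis from 0) in the 3 Cebpa_fl/fl and 3 Cebpa_ASKO libraries, 1 point per library, with the mean and SD beside the points. *C3*, *C2* and *Cfb* separate by group, while the other 6 genes overlap, and control replicate 2 is the highest control for every gene except *Cd59a*.

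The proteases at the head of the classical pathway did not pass the test between the genotypes. *C1ra*, encoding C1r, was at 178, 321 and 160 CPM in Cebpa_fl/fl and at 220, 213 and 247 CPM in Cebpa_ASKO. The knockout libraries lay inside the range of the controls. Its log2 fold change was 0.04 (95% interval -0.59 to 0.67, adjusted p = 0.956, edgeR quasi-likelihood test). *C1s1*, encoding C1s, the protease that cuts C4 and C2, was at 320, 530 and 288 CPM in Cebpa_fl/fl and at 411, 383 and 417 CPM in Cebpa_ASKO. Again the knockout libraries lay within the control range, and the log2 fold change was 0.09 (95% interval -0.47 to 0.65, edgeR adjusted p = 0.890). The 2 genes are neighbours on chromosome 6 in GRCm38, *C1ra* at chr6:124512405-124523443 on the plus strand and *C1s1* at chr6:124530345-124542359 on the minus strand. Their copies *C1rb* and *C1s2* held almost no counts, and adding them to *C1ra* and *C1s1* changed neither result.

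*Serping1* encodes the C1 inhibitor, a serpin that inactivates C1r and C1s. It was at 294, 608 and 239 CPM in Cebpa_fl/fl and at 378, 402 and 466 CPM in Cebpa_ASKO. The groups overlapped, with a log2 fold change of 0.13 (95% interval -0.69 to 0.95, edgeR adjusted p = 0.893). The ratio of *C1ra* to *C1s1* within a library was nearly constant. It was 0.557, 0.606 and 0.556 in Cebpa_fl/fl and 0.534, 0.556 and 0.591 in Cebpa_ASKO. Each gene alone varied by 40.2% and 34.7% (SD over mean) among the controls. A steady ratio among the controls was not particular to this pair. There *Cfb* to *C1s1* was 0.568 ± 0.0249, beside 0.573 ± 0.0284 for *C1ra* to *C1s1* (SD, n = 3). Among the Cebpa_ASKO libraries the spread was 7.93% for *C1ra*, 4.53% for *C1s1* and 11.0% for *Serping1*. With 3 libraries a group these spreads are themselves uncertain, and their difference was not tested.

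Neither substrate of C1s passed the test. *C4b*, encoding C4, was at 599, 1372 and 569 CPM in Cebpa_fl/fl and at 504, 452 and 776 CPM in Cebpa_ASKO. The third knockout library was above 2 of the 3 controls, so the groups overlapped. Its log2 fold change was -0.55 (SE 0.39, 95% interval -1.49 to 0.39, edgeR adjusted p = 0.512), and -0.03 without control replicate 2. Its close copy *C4a* had no values in the sources used here. Reads of *C4a* could have been counted as *C4b*, which makes the level of *C4b* uncertain.

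The *C4b* difference also depended on the scale, since Cebpa_ASKO was at 68.2% of control in CPM and at 86.0% in TPM. *C4b* has a short transcript with a retained intron at its end. That transcript was at 12.2, 14.3 and 9.40 CPM in Cebpa_fl/fl and at 28.0, 13.7 and 33.4 CPM in Cebpa_ASKO, which overlap. Its share of the gene's TPM was 15.3, 8.50 and 12.5% in the controls and 33.5, 21.2 and 27.8% in the knockout libraries. The main protein-coding transcript alone gave a log2 fold change of -0.60 (edgeR adjusted p = 0.477).

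*C2* encodes the protease subunit of the classical C3-cutting enzyme. It was at 73.7, 140 and 80.2 CPM in Cebpa_fl/fl and at 44.2, 38.5 and 55.4 CPM in Cebpa_ASKO. Every knockout library was below every control, with means of 98.0 ± 36.7 and 46.0 ± 8.64 CPM (SD, n = 3 each). The log2 fold change was -1.09 (SE 0.27, 95% interval -1.74 to -0.44), and the edgeR adjusted p of 0.0773 did not pass 0.05. DESeq2 gave an adjusted p of 0.00187 for the same counts.

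Most *C2* counts fell on its main protein-coding transcript, at 65.7, 134 and 70.4 CPM in Cebpa_fl/fl and 33.4, 29.8 and 48.0 CPM in Cebpa_ASKO. Taken alone it gave -1.28 (edgeR adjusted p = 0.0783). A minor protein-coding transcript overlapped between the groups at 5.38, 3.77 and 7.71 CPM against 9.40, 7.39 and 4.70 CPM. The main transcript made up 87.7 to 95.8% of the gene's counts in the controls and 75.7 to 86.6% in the knockout libraries.

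*C3* encodes the protein on which all complement pathways meet. It was at 2133, 2900 and 2472 CPM in Cebpa_fl/fl and at 932, 1079 and 1408 CPM in Cebpa_ASKO. The groups were well apart, since the lowest control was above the highest knockout library. The means were 2502 ± 385 and 1140 ± 244 CPM (SD, n = 3 each), and *C3* fell by 1.13 on the log2 scale (SE 0.22, 95% interval -1.66 to -0.61, edgeR quasi-likelihood adjusted p = 0.0353). An exact two-sided permutation test of log2 CPM gave p = 0.1, the smallest that 3 against 3 allows. *C3* was the only one of the 9 called lower, and none was called higher, where 3.84% of the 16069 genes tested were called lower and 1.39% higher. At an unadjusted p under 0.05, which 19.8% of all genes passed in either direction, 3 of the 9 were lower (*C3*, *C2* and *Cfb*) and 0 higher. DESeq2 called the same 3 lower and 0 higher, where it called 6.7% of all genes lower and 3.98% higher.

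The call of *C3* lay close to the threshold. It was lost with limma on log2(TPM + 1) (adjusted p = 0.0508), with 0.1 added instead (limma adjusted p = 0.0684) and with no filter (limma adjusted p = 0.342). Scaling the libraries by their totals also lost it (edgeR adjusted p = 0.0585), as did the replicate number as a block (edgeR adjusted p = 0.0975). In 5 of the 6 fits that left out 1 library it was lost too, with edgeR adjusted p from 0.0518 to 0.158 and fold changes from -1.24 to -1.01. Leaving out the third Cebpa_ASKO library kept it (-1.33, edgeR adjusted p = 0.0349).

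*C3* lies at chr17:57203970-57228136 in GRCm38, on the minus strand. RefSeq promoters (GRCm38.p6) were at hand for 5 of the 9 genes, namely *C3*, *Cfp*, *Cd59a*, *C1ra* and *C1s1*. Below are the 250 bases before the start of *C3*, the gene that fell, at chr17:57228137-57228386, and of *C1s1*, the gene used further on as the reference level, at chr6:124542360-124542609. Both are shown on the minus strand, 5′ to 3′, and capitals mark a match to TTNCGNAA, a loose form of the palindrome that C/EBP proteins bind.
C3: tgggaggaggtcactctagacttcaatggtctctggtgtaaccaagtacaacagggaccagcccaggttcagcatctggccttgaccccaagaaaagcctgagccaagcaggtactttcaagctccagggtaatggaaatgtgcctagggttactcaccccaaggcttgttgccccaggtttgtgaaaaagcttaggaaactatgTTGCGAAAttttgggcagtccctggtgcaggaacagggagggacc
C1s1: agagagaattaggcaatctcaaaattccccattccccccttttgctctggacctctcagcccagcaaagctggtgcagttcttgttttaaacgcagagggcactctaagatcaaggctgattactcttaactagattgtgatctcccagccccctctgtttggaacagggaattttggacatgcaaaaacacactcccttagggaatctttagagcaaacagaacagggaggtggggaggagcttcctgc
The match in *C3* was TTGCGAAA, 45 to 38 bases before the annotated start. TTNCGNAA, which reads the same on both strands, was found in 2.04% of 32851 RefSeq promoter windows of this length and in none of the windows of the other 4 genes. The looser TTNNGNAA, searched on both strands and including every TTNCGNAA, was in 36.9% of windows, among them those of *C3*, *C1ra* and *C1s1* and not those of *Cfp* and *Cd59a*. These matches describe letters only, and binding was not measured.

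*Cfb* encodes factor B, the counterpart of C2 in the alternative pathway. It was at 178, 292 and 172 CPM in Cebpa_fl/fl and at 74.6, 64.5 and 140 CPM in Cebpa_ASKO. The groups did not overlap, although the third knockout library came near the lower controls. With means of 214 ± 67.6 and 93.0 ± 41.0 CPM (SD, n = 3 each), the log2 fold change was -1.20 (SE 0.35, 95% interval -2.03 to -0.37, edgeR adjusted p = 0.115), which did not pass. DESeq2 gave an adjusted p of 0.00610. Without the third Cebpa_ASKO library the edgeR fold change was -1.64 (adjusted p = 0.0357).

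Both main protein-coding transcripts of *Cfb* had separate groups. One was at 71.0, 136 and 72.4 CPM in the controls and 27.9, 34.9 and 63.5 CPM in the knockout libraries. The other was at 77.4, 124 and 80.1 CPM in the controls and 33.5, 23.7 and 56.7 CPM in the knockout libraries. *Cfb* (chr17:34856374-34862518) and *C2* (chr17:34862604-34898265) follow each other on the minus strand in GRCm38, with *C4b* on the same strand nearby (chr17:34728380-34743882). The 3 genes whose groups were apart, *C3*, *C2* and *Cfb*, compare with 13.2% of all tested genes with all Cebpa_ASKO libraries below all controls (12.9% had all of them above).

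*Cfp* encodes properdin, made mainly by myeloid cells. It was at 104, 226 and 69.6 CPM in Cebpa_fl/fl and at 98.7, 96.0 and 157 CPM in Cebpa_ASKO. The groups overlapped widely, and the log2 fold change of -0.18 had a 95% interval of -1.22 to 0.86 (edgeR adjusted p = 0.878). *Cfp* had the largest spread of the 9 among the controls, 61.8% (SD over mean).

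*Cd59a* encodes a membrane-anchored inhibitor of the pore that complement forms. It was at 75.1, 73.3 and 81.8 CPM in Cebpa_fl/fl and at 93.6, 81.3 and 52.2 CPM in Cebpa_ASKO. The knockout libraries spread to either side of the controls. The log2 fold change was -0.02 (95% interval -0.51 to 0.47, edgeR adjusted p = 0.973). It had the smallest control spread of the 9, 5.87%.

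The libraries differed in a pattern that 8 of the 9 genes shared. Control replicate 2 was the highest of all 6 libraries for every gene except *Cd59a*, and Cebpa_ASKO replicate 3 was the highest of its group for the same 8 genes. The excess of the highest control over the lowest was 3.25-fold for *Cfp*, 2.54-fold for *Serping1*, 2.41-fold for *C4b*, 2.01-fold for *C1ra* and 1.36-fold for *C3*. Summed over 10 macrophage markers, the libraries had 1191, 2085 and 803 CPM in Cebpa_fl/fl and 1247, 1358 and 1643 CPM in Cebpa_ASKO. Sums over 10 fibroblast and progenitor markers were 5459, 9563 and 5077 CPM in the controls and 7381, 7214 and 8609 CPM in the knockout libraries. Both sums peaked in the same libraries as the complement genes. In Cebpa_ASKO some single markers of both lists peaked in another replicate. Neutrophil and monocyte markers summed to 87.95, 117 and 56.2 CPM in the controls and 63.7, 61.9 and 101 CPM in the knockout libraries. Hepatocyte markers summed to 1552, 2965 and 1744 CPM against 361, 276 and 759 CPM. These sums peaked in the same libraries too. No macrophage or fibroblast and progenitor marker was at 0, and 0 were called by edgeR, by DESeq2 or at an unadjusted p under 0.05. Without control replicate 2 the fitted log2 fold changes were 0.41 for *C1ra*, 0.40 for *C1s1* and 0.63 for *Serping1* (edgeR adjusted p = 0.0778 for *Serping1*), none past the threshold. The part of these cells in the complement levels was not tested.

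**Figure D2:**
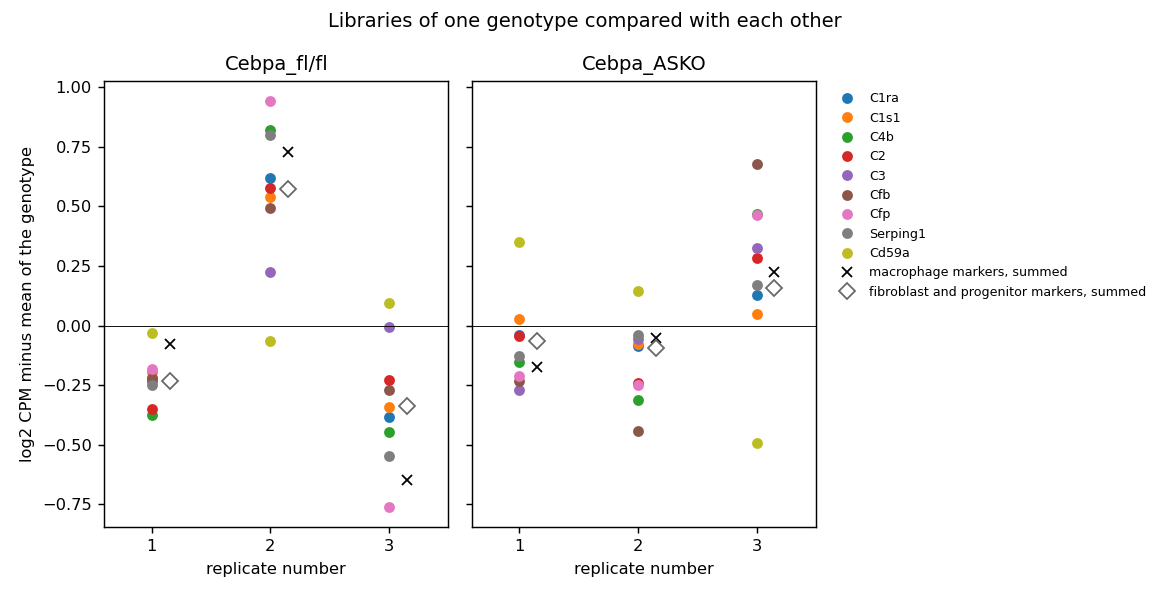
Level of each of the 9 genes, and of the summed macrophage and fibroblast markers, in each library (horizontal axis, replicate number) as log2 CPM minus the mean of its genotype (vertical axis), with 1 panel per genotype. Control replicate 2 and Cebpa_ASKO replicate 3 are the highest of their group for 8 of the 9 genes and for both marker sums, and *Cd59a* is the exception in both panels.

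Levels relative to another gene of the same library were compared next. The 12 ratios were chosen after the values had been seen, so they are descriptions, and in each the exact permutation p could not go below 0.1 (0.171 after adjustment over the 12). *C3* to *C1s1* was 6.68, 5.47 and 8.58 in Cebpa_fl/fl and 2.27, 2.82 and 3.38 in Cebpa_ASKO. *C2* to *C1s1* was 0.231, 0.264 and 0.279 against 0.107, 0.101 and 0.133. *Cfb* to *C1s1* was 0.557, 0.551 and 0.597 against 0.181, 0.169 and 0.336. In each of these the groups did not overlap, as in 7 of the 12 ratios. How often the ratio of other genes to *C1s1* is apart was not computed.

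*C4b*, which overlapped on its own, was also apart relative to *C1s1*, at 1.88, 2.59 and 1.98 in Cebpa_fl/fl against 1.23, 1.18 and 1.86 in Cebpa_ASKO, though the highest knockout ratio nearly reached the lowest control. *Serping1* and *Cd59a* relative to *C1s1* overlapped, as did the ratios of *C2* and of *C3* to *Cfb*. *Cfp* relative to the sum of *C1qa*, *C1qb* and *C1qc*, the C1q chains made by macrophages, was 0.157, 0.177 and 0.152 in the controls and 0.127, 0.140 and 0.131 in the knockout libraries. These groups did not overlap.

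**Figure D3:**
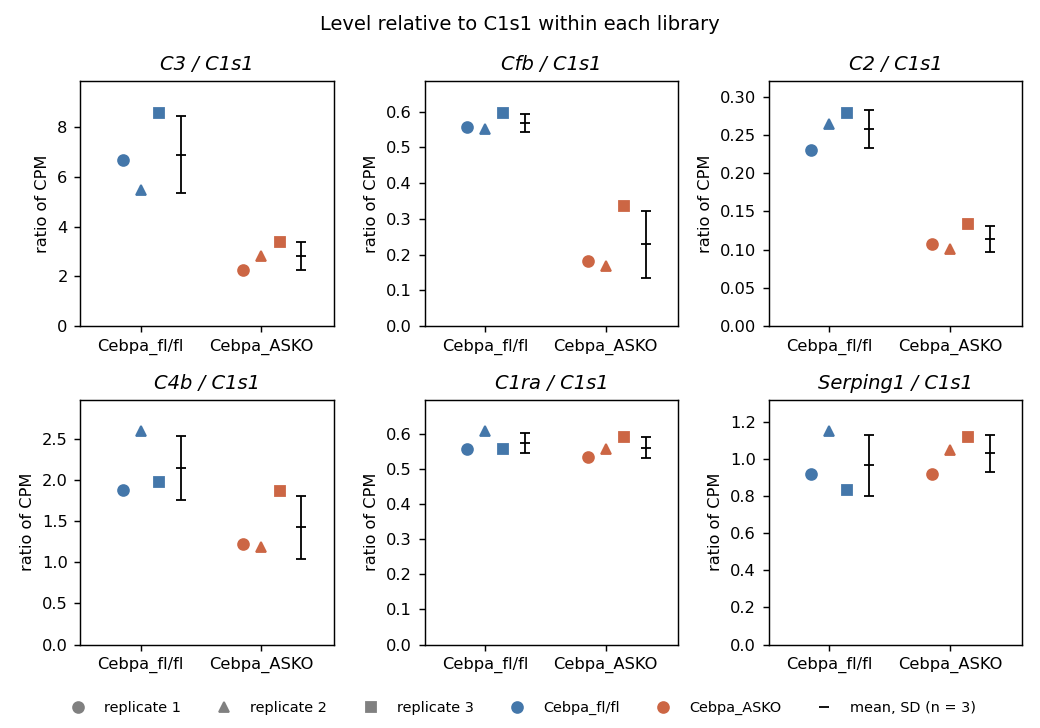
Level of 6 of the genes relative to *C1s1* in the same library (ratio of CPM, axis from 0), 1 point per library, with the mean and SD (n = 3) beside them. *C3*, *Cfb*, *C2* and *C4b* are lower relative to *C1s1* in every Cebpa_ASKO library, and *C1ra* and *Serping1* overlap.

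Relative to adipocyte genes *C3* had no single direction. *C3* to *Cfd*, the gene of factor D, was 0.167, 0.166 and 0.153 in Cebpa_fl/fl and 0.700, 0.917 and 0.587 in Cebpa_ASKO. *C3* to *Adipoq*, the adipocyte hormone adiponectin, was 0.927, 0.934 and 1.03 in the controls and 2.43, 3.48 and 4.22 in the knockout libraries. Over all 10 adipocyte markers, a comparison added after the values had been seen, the *C3* ratio was higher in every Cebpa_ASKO library for 3 (*Adipoq*, *Cidec* and *Retn*), lower for 1 (*Slc2a4*) and overlapping for 6. *C3* to *Plin1*, the coat protein of lipid droplets, was 1.85, 2.49 and 1.68 in the controls and 1.41, 1.80 and 2.94 in the knockout libraries. *C3* to *Slc2a4*, the insulin-responsive glucose transporter, was 10.9, 17.1 and 9.08 in the controls and 4.01, 4.66 and 8.14 in the knockout libraries.

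Among 44 further complement genes, 33 were tested, 2 fell, 1 rose and 30 did not pass. For comparison, a fall passed in edgeR for 3.84% of the 16069 genes and a rise for 1.39%. Whether the 33 depart from those shares was not tested. Their median log2 fold change was 0.03, beside 0.02 for all genes tested and -0.18 for the 9. *Cfd*, the protease that cuts factor B, was at 12780, 17450 and 16130 CPM in Cebpa_fl/fl and 1332, 1176 and 2398 CPM in Cebpa_ASKO, with no overlap. It fell by 3.24 on the log2 scale (edgeR adjusted p = 0.00528), to 10.6% of control in CPM. *Vtn*, encoding vitronectin, an inhibitor of the terminal pore, fell from 12.9, 12.8 and 15.2 CPM to 8.21, 5.79 and 8.13 CPM (log2 fold change -0.88, edgeR adjusted p = 0.0371), and it was not called when any 1 library was left out. *Clu*, encoding clusterin, a chaperone that also blocks that pore, rose from 122, 128 and 104 CPM to 286, 291 and 361 CPM (log2 fold change 1.41, edgeR adjusted p = 0.00302). *Clu* is expressed in many epithelia. The summed mammary epithelial markers were 632 to 1209 CPM in Cebpa_fl/fl and 1577 to 1741 CPM in Cebpa_ASKO, 0 of 9 tested were called by edgeR (5 were higher at an unadjusted p under 0.05, and DESeq2 called 2 higher), and the part of these cells or of muscle in *Clu* was not tested.

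By pathway, the 4 genes of the alternative pathway and *C3* held 2 that fell, *C3* and *Cfd*, while *Cfb* and *Cfp* did not pass. Their median log2 fold change was -1.17. *C3*, on which all pathways meet, was counted in this list alone. Of all genes tested, edgeR called 3.84% lower and 1.39% higher, so few calls would be found in lists this short. Of the classical pathway 0 of 8 tested genes passed in either direction with edgeR (median 0.12), and the same was seen for 5 lectin pathway genes (median -0.21), 5 terminal components (median 0.28), 6 membrane regulators (median -0.10) and 7 receptors (median 0.13). At an unadjusted p under 0.05, which 19.8% of all genes passed, these lists held *C2* and the lectin pathway protease *Masp1* alone. DESeq2 called *C2* alone, where it called 6.7% of all genes lower and 3.98% higher. Of 7 soluble regulators tested, *Vtn* fell and *Clu* rose. The C1q chains, which recognize the target of the classical pathway, followed the library pattern above. *C1qa* was at 255, 503 and 174 CPM in Cebpa_fl/fl and 295, 265 and 474 CPM in Cebpa_ASKO (log2 fold change 0.15, edgeR adjusted p = 0.895).

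**Figure D4:**
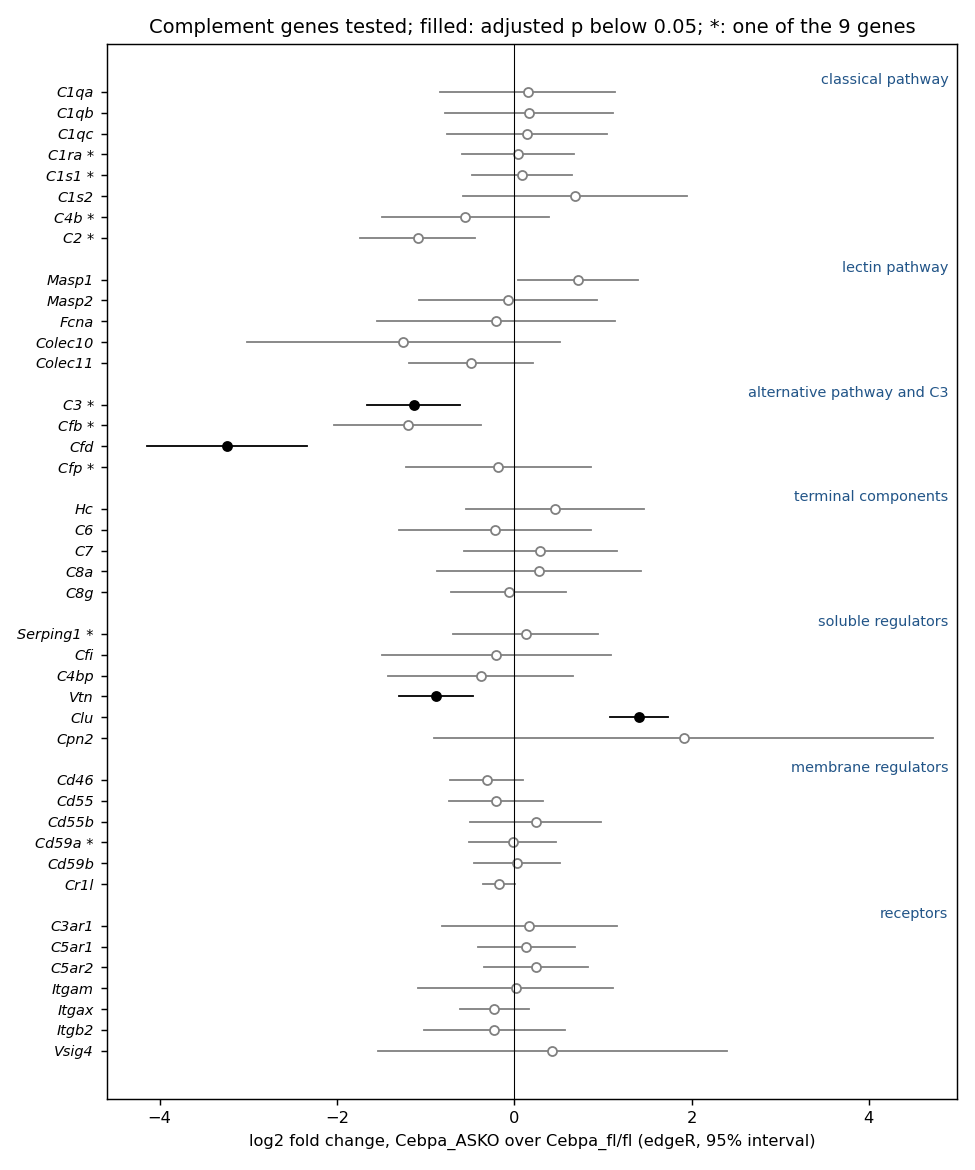
Fitted log2 fold change of the complement genes tested, Cebpa_ASKO over Cebpa_fl/fl, with its 95% interval, grouped by pathway. Filled points passed an adjusted p of 0.05 in edgeR and asterisks mark the 9 genes. *C3*, *Cfd* and *Vtn* lie below 0 and *Clu* above it among the filled points.

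Hepatocyte markers were examined because the liver makes most complement. Of 8 hepatocyte markers 6 were tested, of which 4 were fitted lower and 2 higher. With edgeR 2 were called lower, *Alb* and *Serpina1a*, as were 3.84% of all genes tested. *Serpina1a* was at most 0.735 CPM in the controls and 0 in the knockout libraries. DESeq2 called 4 lower, *Cyp2e1* among them, and 0 higher, where it called 6.7% of all genes lower. The sum, 1552 to 2965 CPM in the controls and 276 to 759 CPM in the knockout libraries, moved with the genotype as *C3* did. Most of that sum was *Cyp2e1*, which adipocytes also express, and *Ttr* and *Ahsg*, defining genes of hepatocytes, were near 0. Whether these transcripts have a part in the *C3* difference was not tested.

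Among the tested genes searched, the 5 with the profile most like *C3* over the 6 libraries were *Uhrf1bp1l*, *Washc2*, *Slc43a1*, *Arl15* and *Sufu*. Pearson's r was 0.992 to 0.995 in log2 CPM. The search left out genes of low mean level, predicted genes and unnamed clones. The 5 genes were picked for this likeness over 6 points in 2 groups, so it is given as a description only.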

How the data were processed

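The authors deposited, for each of 6 libraries, an estimated count per transcript (expected counts, from kallisto 0.44.0 per the labels) and TPM values per transcript and, summed, per gene symbol. The libraries were poly-A selected, and the labels name GRCm38.p6 (with GRCh38.p12, in a role not given). The transcript annotation is not given in the sources used here. Transcripts were assigned to genes with GENCODE M21, which matched at least 99.5% of the counts of each library.

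Estimated counts were summed per gene, rounded, filtered with filterByExpr (minimum count 10) and scaled by TMM. The quasi-likelihood test of edgeR 4.0.16 was fitted to all 16069 genes left, with Benjamini-Hochberg adjustment and a threshold of 0.05. DESeq2 1.42.0 and limma 3.58.1 on log2(TPM + 1) or log2(TPM + 0.1) were alternatives, besides other scalings and filters, a replicate block and fits without each library. Single values were compared by an exact two-sided permutation test over 20 arrangements. The main edgeR fit was tested on simulated data, and the alternatives were not. TPM compare genes within a library, and CPM one gene between libraries. A count of 3 was taken as the floor, and counting error was small beside the spread between mice.

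Of the complement genes tested, 1 is not reported here by name and is not drawn. The named genes were the 9 genes, every further complement gene past the threshold, *Cebpa* and copies of the 9 genes. Markers at 0 or moving with a member were named too, as were the 5 genes most correlated with *C3* among those searched. *Masp1*, *Fcna*, *Cr2*, the C1q genes and the markers set beside *C3* were named after their values were seen. The members and lists were chosen with earlier results of these data known.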

Additional observations from a re-analysis of the deposited data

How the results depend on the processing

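*C3* kept its direction in every fit and lost its call with total-count scaling (-1.08), limma on log2(TPM + 1) (-1.13), with 0.1 added (-1.13) or with no filter (-1.13), and with the replicate block (-1.14). Without 1 library its fold change ran from -1.33 to -1.01. The cause was not tested. DESeq2 also called *C2* (-1.10) and *Cfb* (-1.21), 3 of the 9 genes in all. *Cfb* ran from -1.64 to -0.92 without 1 library and was called without Cebpa_ASKO replicate 3. None of the 9 was called with total-count scaling, the 3 limma fits or the block (0 in each), and 0 to 2 were called without 1 library. Of the further complement genes, limma called 1, 1 and 0 lower and the block 1, 1 was lower whichever library was left out (1 to 1), limma without a filter called 0 higher, and 1 to 2 were higher without 1 library.

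The near-zero fold changes turned sign. *Cfp* was 0.0027, 0.0038 and 0.0027 with limma and 0.42 without control replicate 2. *Cd59a* was 0.0184 with total-count scaling, 0.0186, 0.0185 and 0.0186 with limma, 0.0285 without control replicate 3 and 0.17 without Cebpa_ASKO replicate 3. *C1ra* was -0.09, -0.14 and -0.04 without control replicates 1 and 3 and Cebpa_ASKO replicate 3. *C1s1* was -0.02 and -0.07, and *Serping1* -0.03 and -0.12, without control replicates 1 and 3. Without 1 library *Cfp* ran from -0.49 to 0.42, *Cd59a* from -0.20 to 0.17, *C1ra* from -0.14 to 0.41, *C1s1* from -0.0743 to 0.40 and *Serping1* from -0.12 to 0.63. *C4b* ran from -0.84 to -0.03 without 1 library, nearest to 0 without control replicate 2. Of 165 alternative values for *Cebpa* and the 9 genes, 148 kept the direction.

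Same-numbered mice did not deviate together (correlations of deviations 0.10, -0.01 and -0.26, and none was highest with its own number). With 3 mice a group this cannot tell whether the numbers pair the samples. With the replicate block edgeR called 296 genes lower and 74 higher in all, against 617 and 223. DESeq2 called 1137 lower and 676 higher. Leaving out 1 library gave 278 to 658 lower and 33 to 264 higher, and limma 79 to 401 lower and 17 to 187 higher. *C4b* with *C4a* added was not run, since *C4a* had no values in the sources used here. The fits of the main transcripts of *C2* and *C4b* alone were added after the data had been seen. With 3 mice a group the precision is that of the 95% intervals given above.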

Other observations

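*Cr2*, encoding the complement receptor of B cells and follicular dendritic cells, was at 26.7 CPM in control replicate 1 and at most 0.54 CPM in each of the other 5 libraries. The 7 lymphocyte markers summed to 334 CPM in that library and to 37.2 to 77.0 CPM elsewhere. None of the 9 genes was highest in that library. *Fcna*, encoding a ficolin of the lectin pathway, followed the same library pattern as the C1q chains, at 35.6, 95.9 and 20.96 CPM in Cebpa_fl/fl and 30.5, 37.7 and 63.7 CPM in Cebpa_ASKO, with overlapping groups. *Masp1*, a protease of the lectin pathway, was higher in every Cebpa_ASKO library, at 2.45, 3.18 and 5.07 CPM against 6.28, 6.05 and 5.28 CPM. The same held for 12.9% of all genes tested. *Masp1* did not pass (log2 fold change 0.72, edgeR adjusted p = 0.228).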
